A study of Mus musculus with 6 samples.

Results

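The 46 genes described here encode the nuclear subunits, and their tissue isoforms, of mitochondrial respiratory complexes II to V. They were chosen by symbol alone: the 4 Sdh genes for the subunits of complex II, all Uqcr genes with Cyc1 for complex III, the Cox4 to Cox8 families for complex IV and the Atp5 genes for complex V, leaving out Cox4nb, Atp5s and Atp5sl, which share only part of a name. They were 46 of the 21572 gene symbols in the deposited tables, with 4 genes in complex II, 9 in complex III, 18 in complex IV and 15 in complex V. RNA was sequenced from adult mouse soleus, a postural muscle of the hindlimb rich in oxidative fibres, in 3 groups of 2 libraries, all of strain C57BL/6. The first group was soleus with the genotype label Dach2-/-/Hdac9-/-, a deletion of both genes, taken 3 days after denervation and called DKO-labelled denervated here. The second was wild-type (WT) soleus after 3 days of denervation, and the third was innervated WT soleus. Polyadenylated RNA was sequenced, and knockout muscle with its nerve intact was not analysed here. The labels do not say that the libraries came from separate animals, so p-values measure library-to-library spread only, part or all of which could be technical.

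Complexes II, III and IV sit in the inner mitochondrial membrane and pass electrons from succinate and from reduced coenzyme Q along to oxygen, and complexes III and IV pump protons as they do so. Complex V, the ATP synthase, lets the protons back through a turning ring of small hydrophobic subunits and uses that flow to make ATP. Complex II is encoded wholly in the nucleus, whereas complexes III, IV and V also hold subunits encoded in mitochondrial DNA, which were not analysed here. Several complex IV subunits exist as a pair of genes, one used in most tissues and one largely confined to heart and skeletal muscle. Dach2 is a transcription cofactor and Hdac9 a class IIa histone deacetylase, and both are known in muscle as regulators of genes that respond to loss of the nerve.

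Each library held 25529434 to 46305449 fragments over all genes, and the lowest levels given here rest on few fragments. Of the 46 genes, 44 had a mean of at least 0.5 FPKM (fragments scaled for transcript length and library size) and were tested, among 12247 genes tested in all. Cox7b2, a testis isoform, was the first of the other 2. It had 0.109 FPKM (3 fragments) in 1 DKO-labelled library, 0.138 FPKM (2 fragments) in 1 innervated WT library and 0 in the other 4 libraries. Cox8c, also a testis isoform, was listed at 0 in all 6 libraries. The muscle actin gene Acta1 was listed at 0 in every library too, so a listed 0 is not a measure of absence in these tables. Of the muscle markers, Mb (myoglobin) had at least 3422 FPKM and Ckm (muscle creatine kinase) at least 3302 FPKM in every library, and the slow myosin Myh7 had 210 and 115 FPKM in DKO-labelled denervated soleus, 430 and 106 FPKM in denervated WT soleus and 1176 and 1700 FPKM in innervated WT soleus. Along the second principal component of all genes, which held 13.1% of the variance, replicate 2 of denervated WT stood at 45.0, against -29.4 to 8.77 in the other 5 libraries.

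Dach2 had 0.961 and 0.681 FPKM in DKO-labelled denervated soleus, 0.519 and 0.536 FPKM in denervated WT soleus and 3.85 and 4.29 FPKM in innervated WT soleus. Hdac9 had 0.534 and 0.181 FPKM in DKO-labelled denervated soleus, 1.83 and 0.285 FPKM in denervated WT soleus and 4.10 and 3.14 FPKM in innervated WT soleus. Both genes were lower in all denervated libraries than in the innervated ones. Between the denervated groups, Dach2 was higher in both DKO-labelled libraries than in both WT libraries, the opposite of what the label would give, and the Hdac9 values overlapped. These are values over the whole gene and do not show which exons were deleted, so they do not check the genotype label.

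The regions around the start sites of 4 of the genes are shown because these genes mark the contrasts in the results: Sdhb belongs to the complex with the lowest median change, Cox8b and Cox8a are the muscle isoform that fell and its partner that did not pass the test, and Atp5g2 is the ring gene that did not pass it. The sequences are from RefSeq on build GRCm38.p6, and each runs 5′ to 3′ on the gene's strand, 250 bases before and 50 after the annotated start. Sdhb lies on the plus strand at chr4:140961021-140961320, Cox8b on the minus strand at chr7:140900397-140900696, Cox8a on the minus strand at chr19:7217567-7217866 and Atp5g2 on the minus strand at chr15:102670998-102671297. Capitals mark matches, on either strand, to GCATGCG (the core of the site of nuclear respiratory factor NRF1), CCGGAAG (a site of the ETS family, to which the respiratory factor GABP belongs), CAGCTG (an E-box of the kind used by myogenic factors) or TATAAA (the letters of a core promoter element that in known promoters lies upstream of the start).
Sdhb: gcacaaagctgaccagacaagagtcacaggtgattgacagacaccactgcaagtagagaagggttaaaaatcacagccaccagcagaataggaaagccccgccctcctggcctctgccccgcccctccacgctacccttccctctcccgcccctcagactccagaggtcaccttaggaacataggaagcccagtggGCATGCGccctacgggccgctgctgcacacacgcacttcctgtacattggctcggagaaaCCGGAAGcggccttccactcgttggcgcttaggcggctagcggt
Cox8b: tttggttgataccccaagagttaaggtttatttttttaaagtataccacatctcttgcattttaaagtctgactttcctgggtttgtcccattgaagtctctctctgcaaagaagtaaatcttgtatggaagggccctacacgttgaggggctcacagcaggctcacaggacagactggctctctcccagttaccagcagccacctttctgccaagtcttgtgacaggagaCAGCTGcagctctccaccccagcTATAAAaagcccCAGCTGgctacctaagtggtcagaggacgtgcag
Cox8a: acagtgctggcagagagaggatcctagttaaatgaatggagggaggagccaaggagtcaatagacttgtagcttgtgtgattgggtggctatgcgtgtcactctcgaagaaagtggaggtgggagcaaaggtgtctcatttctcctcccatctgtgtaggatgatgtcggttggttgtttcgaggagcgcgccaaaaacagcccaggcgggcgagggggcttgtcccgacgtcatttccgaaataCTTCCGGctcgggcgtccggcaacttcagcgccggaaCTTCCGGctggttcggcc
Atp5g2: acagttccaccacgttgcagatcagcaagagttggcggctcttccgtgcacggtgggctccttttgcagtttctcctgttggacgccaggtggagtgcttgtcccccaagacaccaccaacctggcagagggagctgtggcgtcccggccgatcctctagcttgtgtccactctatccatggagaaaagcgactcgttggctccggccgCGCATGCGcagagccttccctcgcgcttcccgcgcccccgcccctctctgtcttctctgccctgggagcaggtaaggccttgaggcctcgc

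The Sdhb window held 1 NRF1 core and 1 ETS match, the Cox8a window 2 ETS matches, and the Atp5g2 window an NRF1 core read on both strands at overlapping positions. The Cox8b window held none of these and had 2 E-boxes and 1 TATAAA. Its TATAAA starts 4 bases after the annotated start and 1 of its E-boxes 16 bases after it. The ETS match of Sdhb starts 6 bases after the annotated start, and 1 of those of Cox8a starts 32 bases after it. Windows were used for 35 of the 46 genes, 38 windows in all, and 21.1% of them held an NRF1 core, against 3.58% of the 32851 windows of all genes. Windows on chromosome 18, where Atp5a1 lies, were left out for the members but not for all genes. ETS matches were in 31.6% of the members' windows and 8.86% of all windows, and AAGGTCA, the half-site of estrogen-related receptors (ERR), in 13.2% and 4.72%. ATGGCGG, the YY1 motif, was in 5.26% and 4.05%, the E-box in 5.26% and 16.3%, TATAAA in 7.89% and 13.6%, and the MEF2 motif in 0% and 0.557%. None of these motifs was in the window of Cox7a1, another muscle isoform, or in that of its partner Cox7a2. The window of Cox6a1, the partner of Cox6a2, held NRF1 core and ETS matches. A match is a run of letters and not evidence of binding, and the genes without a window include Cox6a2, Sdhc, Cyc1 and Cox4i1.

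The first comparison asked how 3 days of denervation alter WT soleus, and most subunit genes were lower. Of the 44 genes tested, 36 were lower in denervated than in innervated WT soleus and 0 were higher, at an adjusted p under 0.05 in edgeR's quasi-likelihood test with Benjamini-Hochberg adjustment over all genes tested. Over all 12247 genes tested, 14.3% were lower and 14.4% higher by the same rule, 28.7% in either direction. The log2 change was below 0 for 43 of the 44 genes and for 49.8% of all genes, and both denervated libraries lay below both innervated ones for 42 of the 44 and for 38.5% of all genes. The median log2 change of the 44 genes was -0.86, a level 1.82 times lower, against a median of 0.0 over all genes tested. The median was lowest in complex II, at -1.29, with 4 of 4 genes lower. It was -0.92 in complex V with 14 of 15 lower, -0.77 in complex III with 9 of 9 lower, and -0.67 in complex IV with 9 of 16 lower. In this bulk RNA, fewer cells of a type and less RNA per cell cannot be told apart.

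The 46 genes together took 1.78% and 1.91% of all fragments in DKO-labelled denervated soleus, 1.94% and 2.09% in denervated WT soleus and 3.15% and 3.36% in innervated WT soleus. All 4 denervated libraries lay below both innervated ones. Complex V had the largest share in each library, 0.944% and 0.986% in DKO-labelled denervated, 1.02% and 1.07% in denervated WT and 1.62% and 1.67% in innervated WT soleus. Complex II had the smallest, 0.152% and 0.160% in DKO-labelled denervated, 0.165% and 0.174% in denervated WT and 0.341% and 0.353% in innervated WT soleus. Among all genes ranked by mean FPKM, 13 of the 46 were in the top 100 in DKO-labelled denervated soleus, 15 in denervated WT soleus and 25 in innervated WT soleus.

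**Figure D1:**
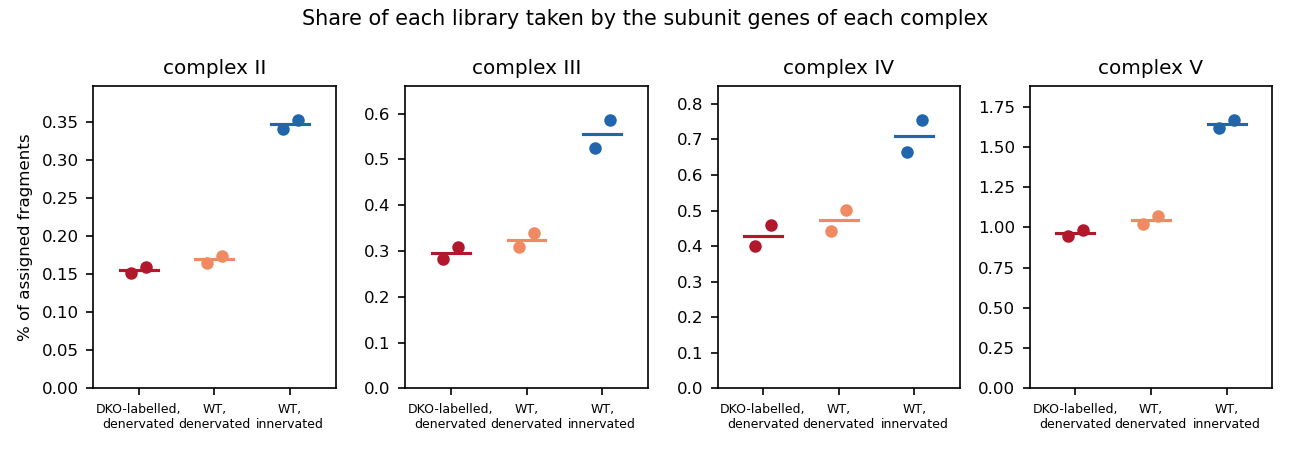
Percent of all fragments taken by the subunit genes of complexes II, III, IV and V, with 1 panel for each complex, 1 point for each library and a bar at each group mean. In complex V the DKO-labelled denervated libraries lie at 0.944% and 0.986%, the denervated WT libraries at 1.02% and 1.07%, and the innervated WT libraries at 1.62% and 1.67%.

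The denervation counts rest on both innervated libraries. Without innervated WT replicate 1, 6 of the 44 genes were called, where 3.82% of all genes tested were called in either direction. Without innervated WT replicate 2, 0 were called, where 1.65% of all genes were. The median change of the 44 genes was -0.93 without the first and -0.75 without the second. In those fits the lone innervated library is assumed to vary like the other groups. Of the 36 genes called, 22 were called in each of 11 other fits that kept all libraries, and 14 lost the call in at least 1 of them.

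In complex II, succinate dehydrogenase, which is both an enzyme of the citric acid cycle and an entry point for electrons, all 4 subunit genes fell. Sdhc, a membrane anchor, had 149 and 163 FPKM in denervated WT soleus and 482 and 551 FPKM in innervated WT soleus. Its log2 change was -1.67 ± 0.18 (SE), the largest fall of the 44 genes (edgeR adjusted p = 0.00346), and the deposited tables place it at chr1:173059287-173080734 on build mm9. Sdhb, the iron-sulfur subunit, had 228 and 269 FPKM in denervated WT soleus and 623 and 756 FPKM in innervated WT soleus, a log2 change of -1.39 ± 0.19 (edgeR adjusted p = 0.00590). Its level in denervated muscle was well below that in innervated muscle in every library.

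Sdha, the flavoprotein that oxidises succinate, had 205 and 209 FPKM in denervated WT soleus and 472 and 495 FPKM in innervated WT soleus, and fell by 1.18 on the log2 scale. Sdhd, the other anchor, had 154 and 166 FPKM in denervated WT soleus and 356 and 384 FPKM in innervated WT soleus, and fell by 1.15. The groups did not overlap for any of the 4 genes. The call of each held in all 11 fits that kept all libraries.

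Complex II was also set against the other complexes within each library. The median log2 FPKM of complex II minus that of complex III was -1.21 and -1.34 in denervated WT libraries and -0.57 and -0.74 in innervated WT libraries, a difference of -0.62 between groups. Minus complex IV the difference between groups was -0.56, and minus complex V it was -0.68. In each of these 3 contrasts the groups did not overlap, and the exact two-sided permutation p was 0.333, the smallest that 2 libraries against 2 can give. Across the 44 genes, fragments per FPKM, which grow with transcript length, had a Spearman correlation of -0.46 with the log2 change. The part of transcript length in the complex II contrasts was not tested.

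In complex III, cytochrome c reductase, the genes of the catalytic and core subunits had lower estimates than those of the small ones. Cyc1, which encodes the cytochrome that hands electrons on to cytochrome c, had 297 and 318 FPKM in denervated WT soleus and 724 and 875 FPKM in innervated WT soleus, a log2 change of -1.30 ± 0.17 (edgeR adjusted p = 0.00513). Uqcrc1, a core protein, had 250 and 274 FPKM in denervated WT soleus and 598 and 773 FPKM in innervated WT soleus, a log2 change of -1.31 ± 0.18 (edgeR adjusted p = 0.00626). Uqcrfs1, the Rieske iron-sulfur protein, had 225 and 268 FPKM in denervated WT soleus and 494 and 608 FPKM in innervated WT soleus and fell by 1.13. These 3 genes did not overlap between groups, and with the other core gene, Uqcrc2, which had a log2 change of -1.12, they ranged from -1.31 to -1.12.

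The 5 genes of small complex III subunits fell too, with log2 changes of -0.77 to -0.59. Uqcrb, a subunit that binds ubiquinone, had 423 and 474 FPKM in denervated WT soleus and 678 and 707 FPKM in innervated WT soleus, the smallest change of complex III at -0.59 ± 0.16 (edgeR adjusted p = 0.0366). Its call was lost in 4 of the 11 fits that kept all libraries. The mean log2 FPKM of the 4 core and catalytic genes minus that of the 5 small ones was -1.07 and -1.15 in denervated WT libraries and -0.63 and -0.60 in innervated WT libraries, so the denervated libraries lay apart. Transcript length moves with this contrast: across the 9 genes of complex III, the number of fragments per FPKM, which grows with transcript length, had a Spearman correlation with the log2 change of -0.67. Across all 44 genes it was -0.46 and across all 12247 genes -0.03, with the points sharing the same libraries, and its part in the contrast was not tested.

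In complex IV, cytochrome c oxidase, the paired isoforms were read side by side. The muscle isoforms Cox6a2, Cox7a1 and Cox8b fell by 1.18, 1.35 and 1.09 on the log2 scale, and of their partners used in most tissues, Cox6a1, Cox7a2 and Cox8a, only Cox7a2 passed the test. Cox6a2 had 1179 and 1451 FPKM in denervated WT soleus and 2703 and 3668 FPKM in innervated WT soleus (log2 change -1.18 ± 0.23, edgeR adjusted p = 0.0146). Cox6a1 had 89.4 and 116 FPKM in denervated WT soleus and 104 and 114 FPKM in innervated WT soleus, which overlap (edgeR adjusted p = 0.999).

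Cox7a1 had 679 and 780 FPKM in denervated WT soleus and 1686 and 2214 FPKM in innervated WT soleus, a log2 change of -1.35 ± 0.19 (edgeR adjusted p = 0.00613). Cox7a2 had 221 and 259 FPKM in denervated WT soleus and 356 and 402 FPKM in innervated WT soleus, a log2 change of -0.61 ± 0.16 (edgeR adjusted p = 0.0333), and its call was lost in 3 of the 11 other fits. For both genes the denervated libraries lay below the innervated ones. Cox8b had 1446 and 1591 FPKM in denervated WT soleus and 3087 and 3748 FPKM in innervated WT soleus, a log2 change of -1.09 ± 0.22 (edgeR adjusted p = 0.0165). Cox8a had 151 and 188 FPKM in denervated WT soleus and 158 and 163 FPKM in innervated WT soleus, a log2 change of 0.15 ± 0.16 (edgeR adjusted p = 0.517). With no TMM scaling the log2 change of Cox6a1 was 0.26, and without denervated WT replicate 2 that of Cox8a was -0.03, so neither gene had a settled direction.

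The FPKM ratio of muscle isoform to partner, which needs no scaling between libraries, was lower after denervation in each pair. Cox6a2 over Cox6a1 was 13.2 and 12.5 in denervated WT soleus and 26.0 and 32.1 in innervated WT soleus. Cox7a1 over Cox7a2 was 3.07 and 3.01 in denervated WT soleus and 4.73 and 5.5 in innervated WT soleus. Cox8b over Cox8a was 9.60 and 8.46 in denervated WT soleus and 19.6 and 23.0 in innervated WT soleus. No denervated library reached an innervated one in any of the 3 pairs, and each exact two-sided permutation p was 0.333, the smallest possible with 2 libraries against 2. The muscle isoforms stayed the larger part of their pairs: Cox8b made up 90.6% and 89.4% of its pair's FPKM in denervated WT soleus and 95.1% and 95.8% in innervated WT soleus.

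**Figure D2:**
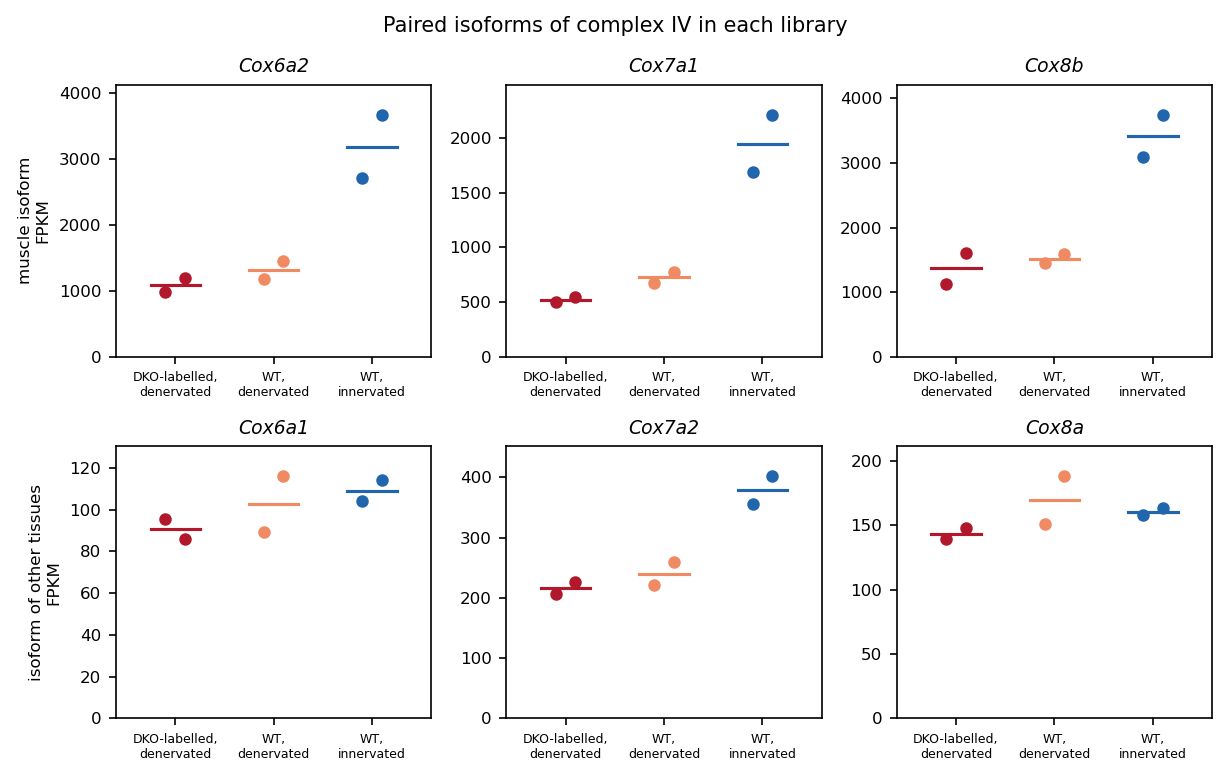
FPKM of the muscle isoforms Cox6a2, Cox7a1 and Cox8b and of their partners Cox6a1, Cox7a2 and Cox8a, 1 panel per gene, with 1 point per library and a bar at each group mean. Cox6a2 lies at 1179 and 1451 FPKM in denervated WT soleus and at 2703 and 3668 FPKM in innervated WT soleus, whereas the Cox6a1 values of these groups overlap.

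Cox7a1 and Cox8b are also known as genes of brown adipocytes. Of the 5 brown adipocyte markers, Ucp1 and Prdm16 were too low to test, and 0 of the other 3 passed in either direction between denervated and innervated WT soleus. The summed level of the 5 was 12.8 and 10.7 FPKM in denervated WT soleus and 10 and 8.18 FPKM in innervated WT soleus. Ucp1, which defines those cells, was at 0.442 and 0.328 FPKM in denervated WT soleus and at 0.0328 and 0 FPKM in innervated WT soleus.

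Cox4i1, the form of the regulatory subunit used in most tissues, had 853 and 953 FPKM in denervated WT soleus and 1459 and 1713 FPKM in innervated WT soleus, and fell by 0.75 on the log2 scale. Cox4i2, known from lung, was low throughout, with 1.71 and 1.99 FPKM in denervated WT soleus and 3.67 and 5.42 FPKM in innervated WT soleus, a log2 change of -1.21 ± 0.34 (edgeR adjusted p = 0.0394). Both lay apart between groups, and the call of Cox4i2 was lost in 3 of the 11 other fits and in each of the 6 that left out a library. Cox6b1, which joins the monomers of complex IV, had 751 and 821 FPKM in denervated WT soleus and 1234 and 1430 FPKM in innervated WT soleus, and fell by 0.70. Its testis form Cox6b2 had 1.0 and 1.01 FPKM in denervated WT soleus and 1.77 and 1.22 FPKM in innervated WT soleus (edgeR adjusted p = 0.350).

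Of the 4 complex IV genes that have no tissue isoform here, Cox5a and Cox6c passed the test and Cox5b and Cox7c did not. Cox5a, one of the larger nuclear subunits, fell by 1.10 on the log2 scale, with 486 and 544 FPKM in denervated WT soleus and 1044 and 1219 FPKM in innervated WT soleus. Cox7b, whose testis form is Cox7b2, had 280 and 341 FPKM in denervated WT soleus and 438 and 525 FPKM in innervated WT soleus, a log2 change of -0.63 ± 0.19 that missed the threshold (edgeR adjusted p = 0.0536). The groups did not overlap for Cox7b. Cox5b (adjusted p = 0.0516 in edgeR), Cox7a2l (0.0581), a factor of respiratory supercomplexes, and Cox7c (0.0690) missed it by a similar margin, and in DESeq2's Wald test 40 of the 44 genes were called, where 36.9% of all genes were called in either direction.

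In complex V, 14 of 15 genes fell, from -0.70 for Atp5l to -1.21 for Atp5a1, which encodes the alpha subunit of the catalytic head. Atp5a1 had 584 and 633 FPKM in denervated WT soleus and 1414 and 1495 FPKM in innervated WT soleus (log2 change -1.21 ± 0.17, edgeR adjusted p = 0.00626). Atp5b, which encodes the beta subunit that makes ATP, had 1478 and 1503 FPKM in denervated WT soleus and 2511 and 2800 FPKM in innervated WT soleus (log2 change -0.77 ± 0.18, edgeR adjusted p = 0.0235). Denervated and innervated libraries did not overlap for either gene, and the call of Atp5b was lost with raw totals and with quantile normalization. The 5 genes of the F1 part, the catalytic head with its central stalk, had a median change of -0.90, with 5 of 5 lower. The 7 genes of the peripheral stalk and of the membrane sector other than the ring had a median of -0.92, with 7 of 7 lower. Over all genes tested, 14.3% were lower.

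The ring that turns in the membrane is built from 1 mature protein encoded by 3 genes, Atp5g1, Atp5g2 and Atp5g3. Atp5g1 had 326 and 378 FPKM in denervated WT soleus and 729 and 866 FPKM in innervated WT soleus, and fell by 1.10 on the log2 scale. Atp5g3, the most abundant, had 834 and 941 FPKM in denervated WT soleus and 1718 and 1892 FPKM in innervated WT soleus, and fell by 0.97. Both were called and did not overlap between groups.

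Atp5g2 had 355 and 400 FPKM in denervated WT soleus and 445 and 467 FPKM in innervated WT soleus, a log2 change of -0.20 ± 0.16 that did not pass the test (edgeR adjusted p = 0.387) and was 0.07 with raw totals. Its share of the FPKM of the 3 ring genes was 23.4% and 23.3% in denervated WT soleus and 15.4% and 14.5% in innervated WT soleus. In each denervated library of either genotype the share was above that of both innervated libraries, at 23.1% and 25.5% in DKO-labelled denervated soleus.

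**Figure D3:**
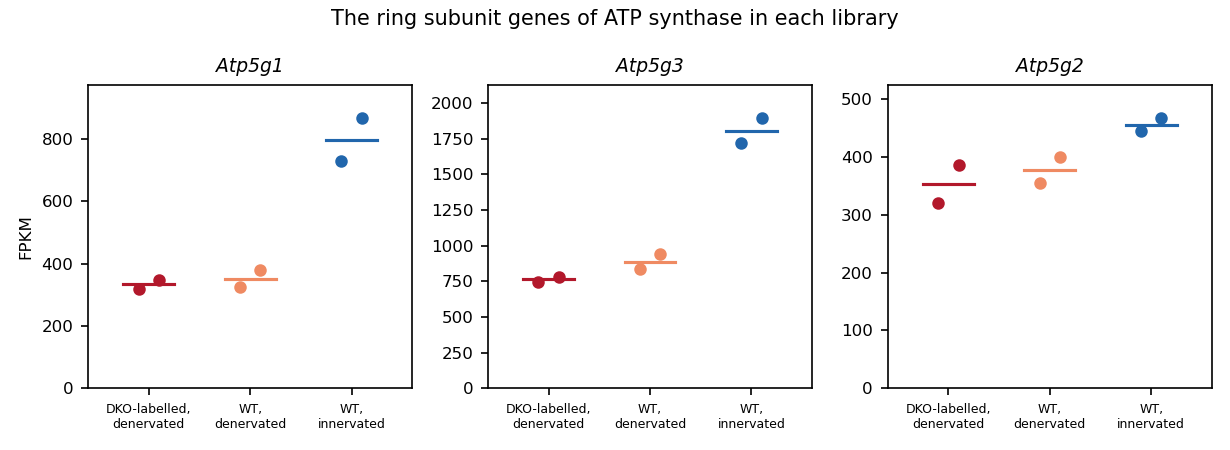
FPKM of the ring subunit genes Atp5g1, Atp5g2 and Atp5g3 in each library, with 1 panel for each gene, 1 point per library and a bar at each group mean. Atp5g1 lies at 326 and 378 FPKM in denervated WT soleus and 729 and 866 FPKM in innervated WT soleus, whereas the Atp5g2 values, at 355 and 400 FPKM in denervated WT soleus and 445 and 467 FPKM in innervated WT soleus, lie closer together.

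**Figure D4:**
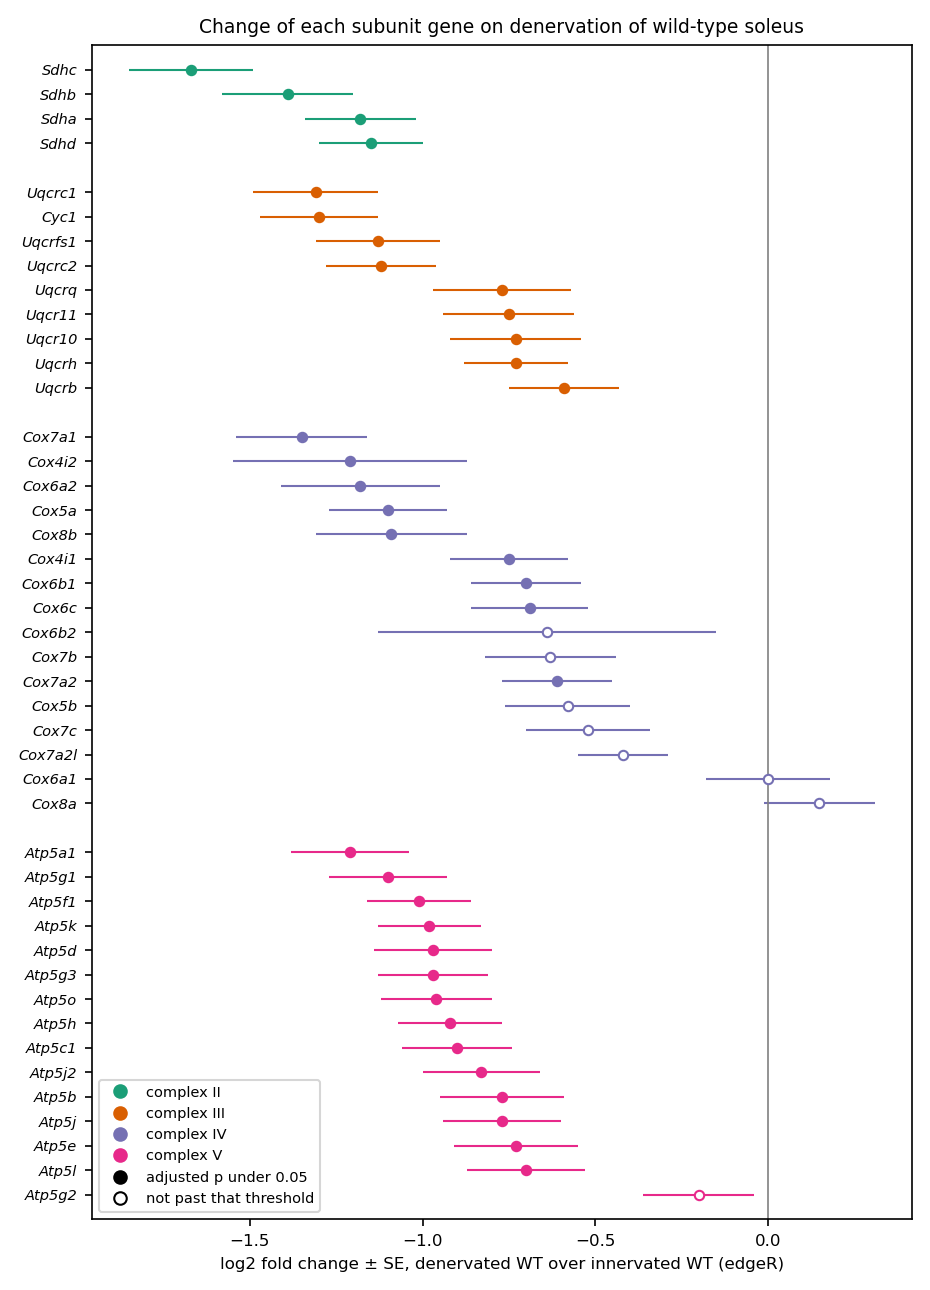
Log2 change of each of the 44 tested genes in denervated over innervated WT soleus, with the SE as a bar, by complex. Sdhc, at -1.67, lies lowest, and Cox8a, at 0.15, is the 1 gene with an estimate above 0.

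Genes that work beside these complexes were described from lists set out by name. Of 37 genes taken for complex I by their Nduf symbols, 33 were lower and 0 higher in denervated than in innervated WT soleus. Over all genes tested, 14.3% were lower and 14.4% higher. The median log2 change of the 37 genes was -0.87. Ndufa4 (log2 change -0.36, not called) and Ndufa4l2 (-1.26) are among them, and membership of complex I was not checked beyond the symbol. Cycs, which encodes the cytochrome c that links complexes III and IV, had 71.6 and 90.4 FPKM in denervated WT soleus and 174 and 181 FPKM in innervated WT soleus, and fell by 1.14 on the log2 scale. Slc25a4, the adenine nucleotide carrier of muscle that exchanges the ATP made by complex V, had 1184 and 1403 FPKM in denervated WT soleus and 4627 and 5489 FPKM in innervated WT soleus, a log2 change of -1.89 ± 0.20 (edgeR adjusted p = 0.00348). Slc25a5, the carrier used in most tissues, had 118 and 206 FPKM in denervated WT soleus and 63.7 and 61.9 FPKM in innervated WT soleus, a log2 change of 1.43 ± 0.27 (edgeR adjusted p = 0.0126), so these paralogs went in opposite directions.

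Assembly and maturation factors of the complexes were listed by name, and the role of each listed gene was not checked. Of those tested, 0 of 3 for complex II, 2 of 4 for complex III (Bcs1l and Lyrm7), 3 of 14 for complex IV (Taco1, Cox10 and Cox11) and 1 of 4 for complex V (Atpaf1) were lower, and Uqcc, a complex III factor, was higher with a log2 change of 0.97. By the same rule 14.3% of all genes were lower, beside which counts of this size are no result about the lists. The 14 complex IV factors had a median of -0.10. Of 17 regulators of mitochondrial genes, 5 were lower and 0 higher: Esrra, Esrrb, Ppara, Ppargc1a and Ppargc1b. Esrra, a receptor that acts with the coactivator Ppargc1a, had 28.5 and 25.4 FPKM in denervated WT soleus and 74.3 and 81.7 FPKM in innervated WT soleus and fell by 1.43.

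Markers of the fibres were read beside the subunits. Of the 9 muscle fibre markers tested, 4 were lower in denervated WT soleus (Ckm, Mb, Myh7 and Myh2) and 5 did not pass, among them Des (desmin) with a log2 change of 0.03. The summed level of the list was 15384 and 13285 FPKM in denervated WT soleus and 29609 and 32994 FPKM in innervated WT soleus. All 6 endothelial and all 6 adipocyte markers were lower. Lower too were 4 of 7 slow fibre, 5 of 7 fast fibre, 4 of 4 smooth muscle and pericyte and 3 of 5 Schwann markers tested. So were 1 of 5 fibroblast and 1 of 1 cardiac markers. The summed macrophage markers were at 98.7 and 79.8 FPKM in denervated WT soleus and 70.2 and 52.5 FPKM in innervated WT soleus. Higher were 1 of 7 macrophage, 1 of 2 neutrophil and 1 of 3 satellite cell markers tested. By the same rule 14.3% of all genes were lower and 14.4% higher, beside which counts such as 1 of 7 or 1 of 5 are no result about the lists. The part of these markers in the fall of the subunit genes was not tested.

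The study's other question was whether loss of Dach2 and Hdac9 alters the response of denervated muscle. Between DKO-labelled and WT denervated soleus, 0 of the 44 genes were called, where 5 of the 12247 genes tested, 0.0408%, were called in either direction. At an unadjusted p under 0.05 the count was 1 of 44, against 6.11% of all genes, and DESeq2 and limma called 0 as well. The estimates were small and mostly on one side: 43 of 44 lay below 0, as did 53.6% of all genes, with a median of -0.17 against -0.02 over all genes. The libraries lay apart, with both DKO-labelled libraries lower, for 25 of the 44 genes and for 15.1% of all genes. Without denervated WT replicate 2, the library that stood apart, the median was -0.05 (all genes 0.0) and 37 of the 44 genes lay below 0. Without DKO-labelled replicate 1 it was -0.09 (all genes -0.04), also with 37 below 0. Without denervated WT replicate 1 it was -0.24 (all genes 0.01), with 44 below 0. Without DKO-labelled replicate 2 it was -0.25 (all genes -0.02), with 43 below 0.

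By complex, the median log2 change between DKO-labelled and WT denervated soleus was -0.19 in complex II, -0.18 in complex III, -0.18 in complex IV and -0.15 in complex V. In complex II, Sdhb had 191 and 221 FPKM in DKO-labelled denervated soleus and 228 and 269 FPKM in denervated WT soleus (log2 change -0.25 ± 0.19), and Sdhc had 135 and 167 FPKM in DKO-labelled denervated soleus and 149 and 163 FPKM in denervated WT soleus (log2 change -0.03 ± 0.17). The Sdhc libraries overlapped and those of Sdhb did not. Sdha had 189 and 178 FPKM in DKO-labelled denervated soleus, against 205 and 209 FPKM in denervated WT soleus, with a log2 change of -0.19. Sdhd had 135 and 145 FPKM in DKO-labelled denervated soleus and 154 and 166 FPKM in denervated WT soleus, also with a log2 change of -0.19.

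In complex III, Uqcrc1 had 205 and 207 FPKM in DKO-labelled denervated soleus and 250 and 274 FPKM in denervated WT soleus, a log2 change of -0.31 ± 0.18. Uqcrq, which encodes a small subunit beside the ubiquinone site, had 605 and 694 FPKM in DKO-labelled denervated soleus and 722 and 903 FPKM in denervated WT soleus, a log2 change of -0.27 ± 0.20. The DKO-labelled libraries lay below the WT ones for both genes, and neither passed the test. Cyc1 and Uqcrb had the smallest changes of complex III, both at -0.11. Cyc1 had 269 and 277 FPKM in DKO-labelled denervated soleus and 297 and 318 FPKM in denervated WT soleus. Uqcrfs1 had 210 and 222 FPKM in DKO-labelled denervated soleus and 225 and 268 FPKM in denervated WT soleus.

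In complex IV, Cox7a1 was the gene with an unadjusted p under 0.05. It had 498 and 544 FPKM in DKO-labelled denervated soleus and 679 and 780 FPKM in denervated WT soleus, a log2 change of -0.46 ± 0.19 (edgeR adjusted p = 0.796). The groups did not overlap. Its ratio to Cox7a2 was 2.41 and 2.40 in DKO-labelled denervated soleus and 3.07 and 3.01 in denervated WT soleus, with an exact two-sided permutation p of 0.333, the smallest possible.

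The other muscle isoforms gave no such separation. Cox6a2 had 977 and 1196 FPKM in DKO-labelled denervated soleus and 1179 and 1451 FPKM in denervated WT soleus, and its ratio to Cox6a1 was 10.2 and 13.9 in DKO-labelled denervated soleus and 13.2 and 12.5 in denervated WT soleus. Cox8b had 1135 and 1609 FPKM in DKO-labelled denervated soleus and 1446 and 1591 FPKM in denervated WT soleus, and its ratio to Cox8a was 8.15 and 10.9 in DKO-labelled denervated soleus and 9.60 and 8.46 in denervated WT soleus. Both ratios overlapped between genotypes (exact two-sided permutation p = 1.0 for each). The partners Cox6a1, Cox7a2 and Cox8a had log2 changes of -0.11, -0.14 and -0.18. Cox6b1 had 628 and 667 FPKM in DKO-labelled denervated soleus and 751 and 821 FPKM in denervated WT soleus, a log2 change of -0.27. Cox6c had 666 and 732 FPKM in DKO-labelled denervated soleus and 774 and 917 FPKM in denervated WT soleus, a log2 change of -0.26. The estimate farthest from 0 was that of the low-level gene Cox6b2, with 0.680 and 0.230 FPKM in DKO-labelled denervated soleus and 1.0 and 1.01 FPKM in denervated WT soleus, a log2 change of -0.95 ± 0.54 (edgeR adjusted p = 0.946). Those Cox6b2 levels rest on 10 and 4 fragments in DKO-labelled and 20 and 12 fragments in WT denervated libraries. Cox4i2, with 1.95 and 1.77 FPKM in DKO-labelled denervated soleus and 1.71 and 1.99 FPKM in denervated WT soleus, was the 1 gene with an estimate above 0, at 0.04 ± 0.34.

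In complex V, Atp5b had 1235 and 1231 FPKM in DKO-labelled denervated soleus and 1478 and 1503 FPKM in denervated WT soleus, a log2 change of -0.26 ± 0.18. Atp5o, which encodes the subunit that joins the head to the peripheral stalk, had 328 and 351 FPKM in DKO-labelled denervated soleus and 379 and 423 FPKM in denervated WT soleus, a log2 change of -0.22 ± 0.16. Both lay apart between genotypes without passing the test. Atp5d, a subunit of the central stalk, had the smallest change, with 256 and 254 FPKM in DKO-labelled denervated soleus and 256 and 277 FPKM in denervated WT soleus. The ring genes Atp5g1, Atp5g2 and Atp5g3 had log2 changes of -0.05, -0.07 and -0.21. The summed muscle fibre markers were at 12041 and 12288 FPKM in DKO-labelled denervated soleus and 15384 and 13285 FPKM in denervated WT soleus, and their part in these estimates was not tested.

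**Figure D5:**
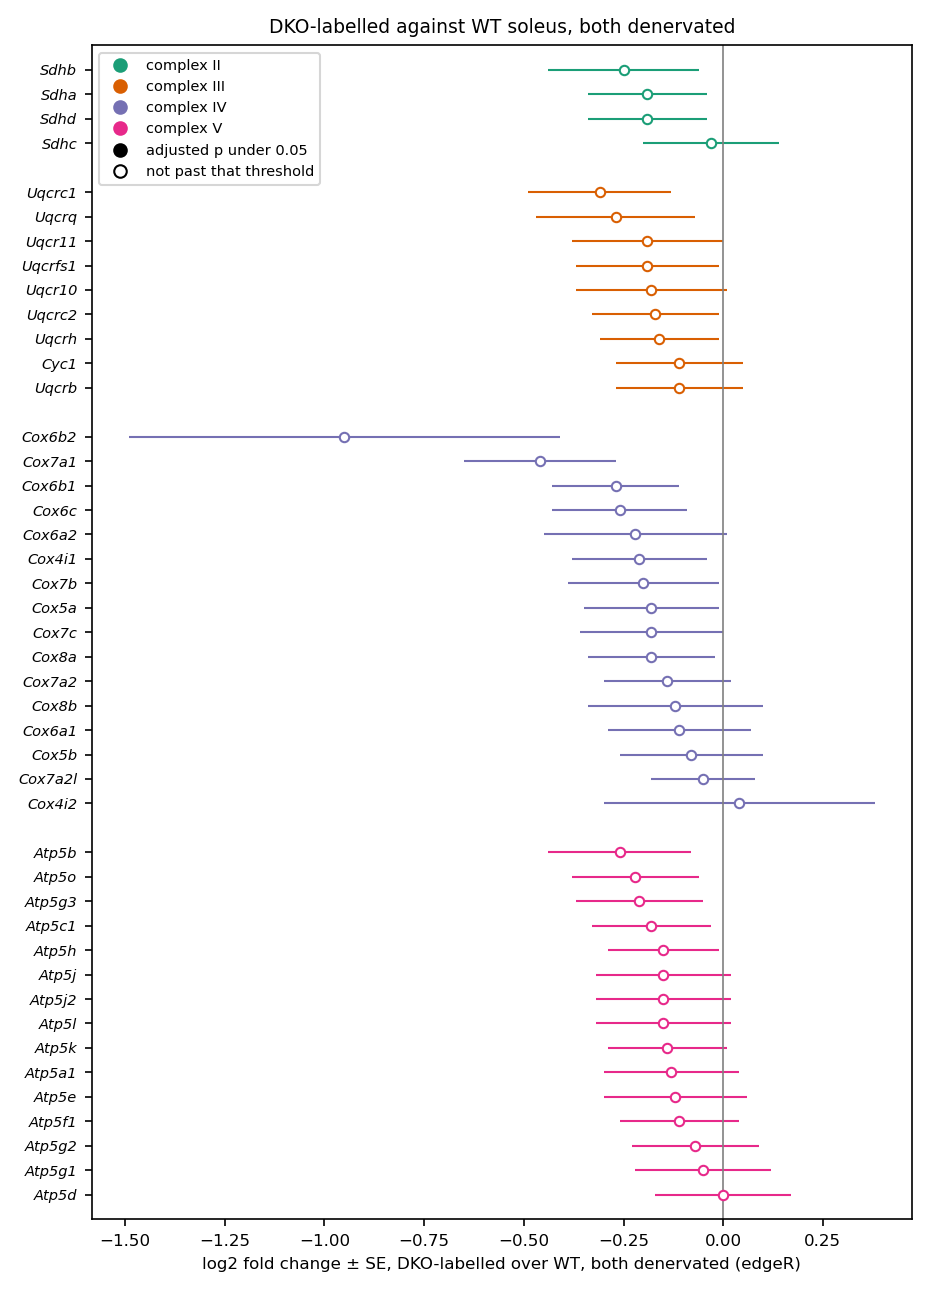
Log2 change of each of the 44 tested genes in DKO-labelled over WT denervated soleus, with the SE as a bar, by complex. Most estimates lie slightly below 0, around a median of -0.17, Cox7a1 lies at -0.46, and 0 of the genes passed the adjusted threshold.

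Against innervated WT soleus, DKO-labelled denervated soleus was lower in most of these genes, and this comparison shares its innervated libraries with the one above. Here 40 of the 44 genes were lower and 0 higher, where 16.2% of all genes tested were lower and 15.2% higher, and the median log2 change was -1.05. The complexes ranked -1.51 for II, -1.07 for V, -1.04 for III and -0.95 for IV. The 4 genes that did not pass were Cox6a1, Cox6b2, Cox8a and Atp5g2. Cox7a1 fell most, with 498 and 544 FPKM in DKO-labelled denervated soleus and 1686 and 2214 FPKM in innervated WT soleus (log2 change -1.81 ± 0.19, edgeR adjusted p = 0.00243). The count was 21 without innervated WT replicate 1, where 7.24% of all genes were called in either direction, and 9 without innervated WT replicate 2, where 5.4% were. It was 24 without DKO-labelled replicate 1, where 16.9% of all genes were called, and 23 without DKO-labelled replicate 2, where 9.83% were.

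Some of these values have limits in the annotation. Atp5j was counted in 1 entry with LOC654426, and 6 genes (Uqcrh, Cox5b, Atp5c1, Atp5f1, Atp5k and Atp5l) have pseudogenes named after them in RefSeq that can share reads with them, so their levels are uncertain to that extent. Pseudogenes under other names were not searched for, so the remaining genes may have the same limit.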

How the data were processed

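Transcript levels were taken from the 6 deposited tables, 1 per library. FPKM values were made by the authors, scaled with 1 factor per library, per the file headers. A scaled signal column, also by the authors, is that factor times the raw fragments and was used only to check the factor. The raw fragments are estimated counts, per the file headers and the values. Of the entries of each library, those at 0 fragments included, 88.4% to 89.0% were whole within 1e-06. Build mm9 and the tools TopHat2 2.0.3, Bowtie2 2.0.0.7, Cuffdiff 2.0.2, Trim Galore 0.2.1 and CASAVA 1.8.2 are listed in the submitters' processing notes, without roles or order. Strandedness and annotation: not given in the sources used here.

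Each table holds 3 lines for each of 21805 entries, and 149 symbols with several entries were summed. Fragments were rounded and tested in 1 fit of all 6 libraries with edgeR 4.0.16 in R 4.3.3 (quasi-likelihood test, TMM scaling, mean of at least 0.5 FPKM, two-sided, Benjamini-Hochberg over 12247 genes). The fit had 3 residual degrees of freedom and a common biological coefficient of variation of 0.222. "Called", "fell" and "passed" mean an adjusted p under 0.05. The fits were tested on simulated data. Alternatives used DESeq2 1.42.0, limma 3.58.1 on log2(FPKM + 0.5), other scalings and filters, and each library left out. Groups came from the sample titles, and replicate numbers follow accession order because the titles give none. Per-library values of FPKM are given for the genes named by rule (complex II, the catalytic genes, the isoform and ring genes, and the largest and smallest changes of each complex). The genes, lists, markers and motifs were chosen with earlier results of these data known. Promoter windows are RefSeq's on GRCm38.p6 and were matched by symbol, not by position, since the tables use mm9.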

Additional observations from a re-analysis of the deposited data

How the results depend on the processing

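Values below are log2 changes unless called counts. Between denervated and innervated WT soleus, all 44 genes kept their direction in every alternative except Cox6a1, Cox8a and Atp5g2, none of which was called. Cox6a1 was at 0.01 with DESeq2 size factors and in DESeq2's Wald test, 0.06 with no filter and 0.26 with raw totals, Atp5g2 was at 0.07 with raw totals, and leaving out libraries gave -0.21 to 0.17 for Cox6a1 and -0.03 to 0.29 for Cox8a. Counts of called genes ranged between 0 and 35 when 1 library was left out, and were 25 with raw totals, 28 with quantile normalization and 40 in DESeq2, where 36.5%, 31.2% and 36.9% of all genes were called in either direction, against 36 and 28.7% as reported. Raw totals shifted the median of all genes by 0.27, and the medians of complexes II, III, IV and V were then -1.02, -0.50, -0.40 and -0.65; the members' median stayed 0.86 below that of all genes. Quantile normalization gave -0.41 for complex IV and -0.58 for complex V, and narrowed the members' median minus that of all genes to -0.57. Against innervated WT, the DKO-labelled medians were -1.18, -0.71, -0.63 and -0.75 with raw totals (all genes shifted by 0.33) and -1.33, -0.74, -0.48 and -0.69 with quantile normalization. The members' median minus that of all genes was -1.06 as reported and with raw totals, and -0.71 with quantile normalization. Counts there ranged between 9 and 40 without 1 library. Cox8a was at 0.00 with quantile normalization, 0.03 with no filter and 0.29 with raw totals, and at -0.09 to 0.01 without 1 library, and with raw totals Atp5g2 was at 0.06 and Cox6a1 at 0.22. Between DKO-labelled and WT denervated soleus, 0 members were called in every alternative. With quantile normalization Atp5d was at 0.09, Atp5f1 at 0.01, Cox7a2l at 0.02, Cox8b at 0.02 and Sdhc at 0.02. With raw totals Atp5d was at 0.06, Atp5g1 at 0.01, Cox7a2l at 0.00 and Sdhc at 0.03, and Atp5d was at 0.01 with a mean of at least 2 FPKM and at 0.00 with only the 2 groups or with the sample-number run as a block. Without 1 library, the ranges were -0.06 to 0.07 for Atp5d, -0.26 to 0.02 for Atp5e, -0.15 to 0.07 for Atp5g1, -0.22 to 0.06 for Atp5g2, -0.06 to 0.16 for Cox4i2, -0.18 to 0.04 for Cox5b, -0.29 to 0.10 for Cox6a1, -0.40 to 0.12 for Cox8b, -0.20 to 0.12 for Sdhc and -0.24 to 0.01 for Uqcrb. The log2 ratio Cox6a2 over Cox6a1 differed between these groups by -0.32 to 0.12 without 1 library and by 0.16 within the second run of sample numbers, and Cox8b over Cox8a by -0.15 to 0.27 and by -0.24 within the first run. With that run as a replicate block, 39, 0 and 40 members and 36.4%, 0.0327% and 38.4% of all genes were called in the denervated WT, genotype and DKO-labelled against innervated comparisons. The runs are consecutive sample numbers only, and the titles give no replicate numbers that pair libraries. The cause of these shifts was not tested. Each group holds 2 libraries, which limits the precision.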
